A study of Aethionema arabicum with 12 samples.

Results

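Cellulose synthases (CESA proteins) and the wall protein COBRA were followed in seeds of the crucifer Aethionema arabicum, an annual relative of Arabidopsis, after imbibition. Members were found by their matching Arabidopsis locus, CESA1 to CESA9 and COBRA, which is 10 loci. The table of 23594 gene models held 1 row for each of 9 of these loci, and CESA5 (AT5G09870) was not analysed here. Of the 9 rows, 7 passed the filter on low counts (3 or more libraries with at least 1 CPM, a count scaled to library size), among 15671 rows that passed it in all. CESA2 and CESA9 did not pass.

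Whole seeds of the Cyprus accession (CYP) and of the Turkish accession ES1020 (TUR) were compared in 4 groups of 3 libraries. These were CYP in white light, CYP in darkness, TUR in white light and TUR in darkness, each for 23 h, with light at 100 µmol m-2 s-1. All groups were imbibed, and RNA came from whole seeds frozen while still ungerminated. White light is known to inhibit germination in the CYP accession but not in the TUR accession. The comparisons ask how RNA differed with light in each accession and between the accessions. The labels do not say whether the libraries of a group came from separate seed batches or plants, so p-values measure only the spread between these libraries, which may be technical.

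Cellulose is spun out at the plasma membrane by rosette-shaped complexes of CESA proteins, each of which adds glucose from UDP-glucose to a growing chain. In Arabidopsis, the complexes of growing, primary walls combine CESA1, CESA3 and a CESA6-type subunit (CESA6, CESA2, CESA5 or CESA9), and those of secondary walls, such as in xylem, combine CESA4, CESA7 and CESA8. CESA2, CESA5 and CESA9 also serve the seed coat epidermis of Arabidopsis during seed development. COBRA is an anchored protein of the cell surface that is needed there for the ordered laying down of cellulose in elongating cells. All these roles come from Arabidopsis and were assigned here through the matching locus.

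Total counts ran from 7099578 to 13953792 per library. Dark-imbibed CYP replicate 3 stood apart from the other 11 libraries on the third principal component, which held 4.51% of the variance. Member results that turn on it are given with and without it, as are some results of the wall gene lists. Seed storage and oil body markers, with rows for 4 of 6 loci, summed to 9340 to 10100 CPM in CYP light, 5940 to 8040 CPM in CYP dark, 3270 to 6070 CPM in TUR light and 2590 to 4370 CPM in TUR dark. CRA1, OLEO1 and OLEO2 carried most of that sum, while SESA3 AA32G01115 ran the other way between accessions, at 36.2 ± 13.3 CPM in CYP light and 22.3 ± 2.41 CPM in CYP dark, against 122 ± 45.0 CPM in TUR light and 116.5 ± 42.8 CPM in TUR dark (SD, n = 3 each). The xylem list, with rows for 5 of 5 loci, summed to 5.04 to 7.72 CPM in CYP light, 5.62 to 7.29 CPM in CYP dark, 13.1 to 17.1 CPM in TUR light and 15.5 to 17.6 CPM in TUR dark. The seed coat list, with rows for 5 of 5 loci, summed to 19.1 to 22.2 CPM in CYP light, 6.53 to 8.85 CPM in CYP dark, 17.3 to 19.6 CPM in TUR light and 9.22 to 11 CPM in TUR dark. TTG2 carried most of that sum, and the proanthocyanidin genes TT12 and TT2 had at most 2 reads in any group. In the xylem list, 1 of the 2 XCP2 rows (AA305G00008) had 0 reads in all libraries, and LAC4 had 0 to 7 reads per group. The endosperm list rested on NCED6, 1 of 2 loci, at 10.1 to 11.6 CPM in CYP light, 15.3 to 26 CPM in CYP dark, 1.75 to 4.35 CPM in TUR light and 10.5 to 12.8 CPM in TUR dark. The epidermis list, with rows for 2 of 2 loci, summed to 73.3 to 76.9 CPM in CYP light, 103 to 140 CPM in CYP dark, 79.5 to 95 CPM in TUR light and 91.9 to 123 CPM in TUR dark. Within it PDF1 averaged 9.09 ± 0.470 CPM in CYP light and 57.8 ± 17.7 CPM in CYP dark, and 18.1 ± 0.865 CPM in TUR light and 50.4 ± 14.6 CPM in TUR dark (SD, n = 3 each). The other gene of that list, ATML1, averaged 66.1 ± 2.21 CPM in CYP light and 62.4 ± 5.14 CPM in CYP dark, and 67.5 ± 7.48 CPM in TUR light and 59.4 ± 1.97 CPM in TUR dark, and was not called in any comparison.

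Per gene length, the transcripts of the primary wall subunits CESA1 and CESA3 and of COBRA were abundant in all 4 groups, those of CESA6 and CESA4 were at middle levels, those of CESA7 and CESA8 were scarce, and those of CESA2 and CESA9, of the seed coat subunits, were at or near 0. Between light and darkness no tested member passed the test in either accession, though CESA7 in TUR and CESA3 in CYP passed in some alternatives given with each gene. By counts, the accessions differed: CESA1, CESA6 and COBRA were lower in CYP than in TUR seeds in darkness and in light, and CESA3 was not lower in either. CESA3 was slightly higher in CYP than in TUR in light.

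**Figure D1:**
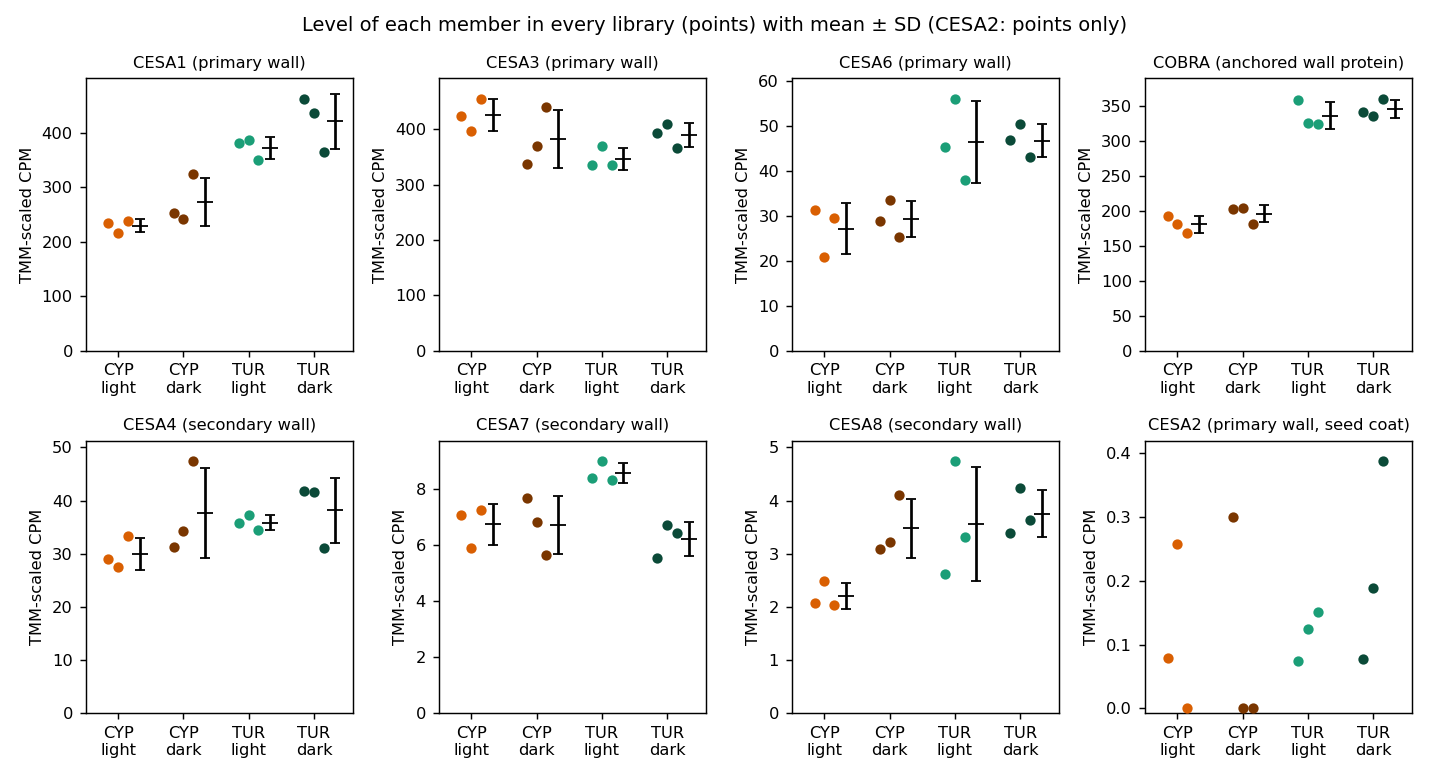
Each panel plots 1 gene's TMM-scaled CPM (vertical axis, linear, from 0) in the 3 libraries of CYP light, CYP dark, TUR light and TUR dark, with the mean ± SD beside the points (points only for CESA2). The CYP points of CESA1 and COBRA lie below all TUR points, those of CESA3 overlap TUR dark, and CESA2 stays at or under 0.388 CPM; CESA9, with 0 reads, is not drawn.

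Read by comparison, 0 of the 7 tested members were called between CYP light and CYP dark (edgeR's quasi-likelihood test, adjusted p under 0.05), where 25% of all tested rows were called, 10.6% higher and 14.3% lower in light. In TUR, 0 of 7 were called between light and dark, against 18.4% of all tested rows, 9.17% higher and 9.22% lower. Before adjustment, 3 members in CYP (CESA1, CESA4 and CESA8) and 1 in TUR (CESA7) had a p under 0.05, and DESeq2 called 0 in each. For the difference between the light responses (CYP minus TUR), 0 of 7 were called, with 2.24% of all tested rows called (0.408% positive and 1.83% negative), 1 member (CESA3) under 0.05 before adjustment and 0 by DESeq2. Between the accessions, 3 of 7 members were called in darkness, all lower in CYP, where 44.5% of all tested rows were called, 22.4% higher and 22.1% lower in CYP. In light, 5 of 7 were called between CYP and TUR, against 52.7% of all tested rows. Of these 5, 4 were lower in CYP, a direction held by 27.8% of all tested rows, and 1 was higher, a direction held by 24.9%.

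The median log2 fold change of the 7 members between CYP light and CYP dark was -0.12, beside -0.01 over all tested rows. The same medians were -0.09 for the members between TUR light and TUR dark and -0.65 for the members between CYP and TUR in light, where the median over all tested rows was -0.02. Between CYP and TUR in darkness the members' median was -0.12, and their changes ran from -0.82 (COBRA) to 0.13 (CESA7). The members chosen are few and differ in role, so the medians only describe them.

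**Figure D2:**
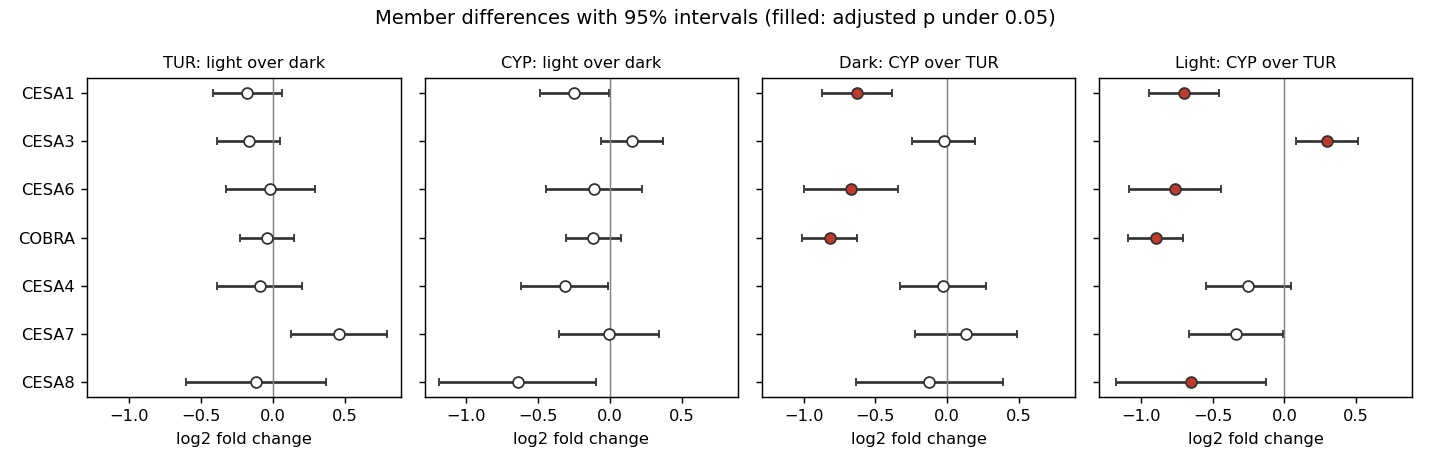
Log2 fold changes (horizontal axis) of the 7 tested members in 4 comparisons, with 95% intervals as bars and filled points where edgeR's adjusted p was under 0.05. No point is filled in the light comparisons; CESA1, CESA6 and COBRA are filled on the negative side in both accession comparisons, with CESA3 at 0.30 and CESA8 at -0.65 filled in light alone.

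CESA1 (AT4G32410, row AA66G00015), a subunit that every primary wall complex of Arabidopsis needs, had 235.1, 215.4 and 238 CPM in CYP light and 253.1, 241.6 and 324.2 CPM in CYP dark. In TUR it had 381, 386.7 and 350.1 CPM in light and 462.9, 436 and 365.5 CPM in darkness. Every CYP library was below every TUR library. CESA1 was lower in CYP than in TUR in darkness, with a log2 fold change of -0.63 (SE 0.12, edgeR adjusted p = 0.000233), and in light, at -0.70 (SE 0.12, edgeR adjusted p = 5.49e-05). In bulk seeds, fewer cells of a type and less RNA per cell cannot be told apart. Its light response was -0.25 in CYP (95% interval -0.49 to -0.01, edgeR adjusted p = 0.125) and -0.18 in TUR (-0.42 to 0.06, edgeR adjusted p = 0.308). Without CYP dark replicate 3, the highest CYP library, the CYP light response was -0.11.

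CESA3 (AT5G05170, row AA35G00006), the other subunit that Arabidopsis primary wall complexes require, did not show the accession pattern of CESA1. It had 424.5, 397 and 455.2 CPM in CYP light, 337.5, 370.5 and 439.8 CPM in CYP dark, 334.5, 369.3 and 335.3 CPM in TUR light, and 392.4, 409.5 and 365.8 CPM in TUR dark. The CYP light libraries were all above the TUR light libraries, and the dark libraries of the accessions overlapped. CESA3 was higher in CYP than in TUR in light, with a log2 fold change of 0.30 (95% interval 0.08 to 0.51, SE 0.10, edgeR adjusted p = 0.0212). The call was lost under 2 of 20 alternatives, limma on log2 RPKM (adjusted p = 0.0605) and without CYP light replicate 3 (edgeR adjusted p = 0.062), where adjusted p over the alternatives ran from 0.00202 to 0.062. In darkness the change was -0.03 (95% interval -0.24 to 0.19, edgeR adjusted p = 0.861).

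The light response of CESA3 was 0.15 in CYP (95% interval -0.06 to 0.37, edgeR adjusted p = 0.302) and -0.17 in TUR (-0.38 to 0.05, edgeR adjusted p = 0.282). The difference between these responses was 0.32 (95% interval 0.02 to 0.63, SE 0.15), with an edgeR p of 0.0397 before and 0.336 after adjustment. Here 1 library mattered. Without CYP dark replicate 3, the CYP light response was 0.27 (edgeR adjusted p = 0.0437, the lowest of 21 alternatives, which reached 0.58) and the difference was 0.43 (edgeR adjusted p = 0.0626).

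CESA6 (AT5G64740, row AA44G00248), which fills the remaining position of the primary wall complex in Arabidopsis, had 31.27, 20.79 and 29.45 CPM in CYP light and 28.94, 33.48 and 25.37 CPM in CYP dark. In TUR it had 45.26, 56.09 and 37.91 CPM in light and 46.8, 50.33 and 43.02 CPM in darkness. All 6 CYP libraries lay below all 6 TUR libraries, as for CESA1. CESA6 was lower in CYP than in TUR in darkness, at -0.67 (SE 0.15, edgeR adjusted p = 0.00181), and in light, at -0.76 (SE 0.15, edgeR adjusted p = 0.000383). Its light response was -0.11 in CYP (95% interval -0.44 to 0.22) and -0.02 in TUR (-0.33 to 0.29), and neither was called.

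COBRA (AT5G60920, row AA5G00189) had the largest accession difference by counts among the 7 tested members. It had 192.4, 181.5 and 167.9 CPM in CYP light, 202, 203.4 and 181.7 CPM in CYP dark, 358.5, 324.7 and 324.2 CPM in TUR light, and 340.8, 335 and 360.2 CPM in TUR dark. The highest CYP library was below the lowest TUR library by more than the whole range within either accession. COBRA was lower in CYP than in TUR in darkness, with a log2 fold change of -0.82 (SE 0.09, 0.567-fold, edgeR adjusted p = 8.68e-07), and in light, at -0.90 (SE 0.09, 0.538-fold, edgeR adjusted p = 1.86e-07). The authors' deposited RPKM (levels per gene length, treated below), which do not follow the counts in TUR, had a narrower gap. They put COBRA at 34.1 to 40.9 in CYP dark and 43.8 to 44.7 in TUR dark. In light they put it at 33.3 to 38.8 in CYP and 42.9 to 46.1 in TUR. The light response of COBRA had the narrowest intervals of the members, at -0.12 in CYP (95% interval -0.31 to 0.07) and -0.04 in TUR (-0.23 to 0.15). CESA1, CESA6 and COBRA were called lower in CYP in all 20 alternatives of each accession comparison. All 20 started from the same counts, so they could not show whether the accession calls hold in the deposited RPKM.

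Since CESA1 and CESA3 are partners in the same complexes, their balance within each library was taken as a ratio of read counts, which does not depend on library scaling. The ratio of CESA3 to CESA1 reads was 1.81 to 1.91 in CYP light (mean 1.85 ± 0.0538, SD, n = 3) and 1.33 to 1.53 in CYP dark (1.41 ± 0.109). It was 0.878 to 0.958 in TUR light (0.93 ± 0.0453) and 0.848 to 1.00 in TUR dark (0.929 ± 0.0772). The ratios of CYP light lay above those of CYP dark, and both lay above all TUR ratios, while the TUR light and dark ratios overlapped. The ratio of CESA6 to CESA3 reads ran the other way between accessions, at 0.0524 to 0.0737 in CYP light and 0.0577 to 0.0904 in CYP dark, against 0.113 to 0.152 in TUR light and 0.118 to 0.123 in TUR dark. Gene length cancels when 1 ratio is compared across groups, but the level of a ratio depends on the lengths of both genes. These ratios were not tested. That reads of 1 gene are counted equally in seeds of both accessions was not tested either.

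**Figure D3:**
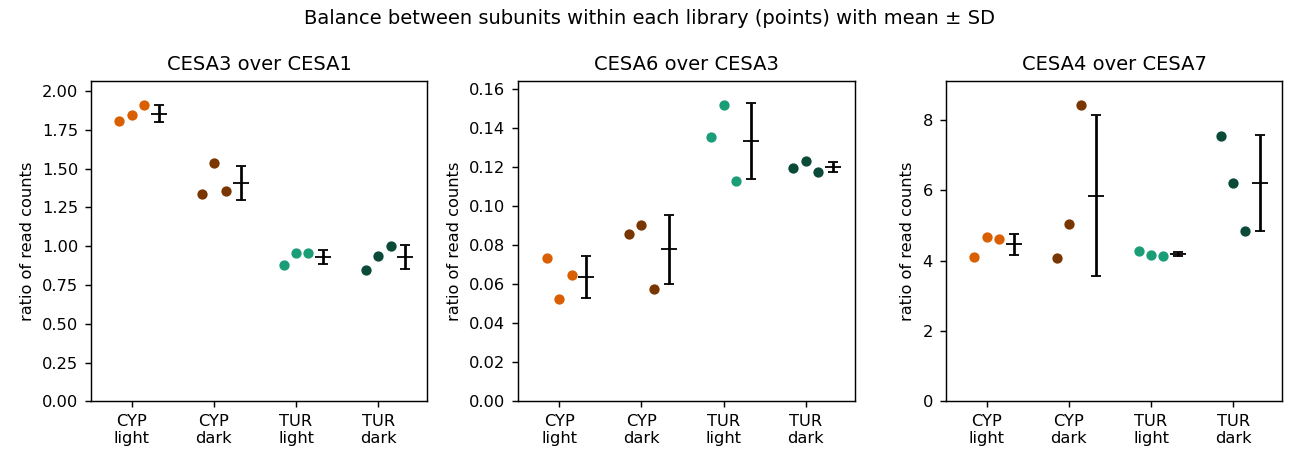
Ratios of read counts between subunits in each library (vertical axis, linear, from 0; points), with mean ± SD beside them, for CYP light, CYP dark, TUR light and TUR dark. CESA3 over CESA1 is 1.33 or more in CYP and 1.00 or less in TUR; CESA6 over CESA3 is lower in all CYP than in all TUR libraries; CESA4 over CESA7 spreads widely in the dark groups and overlaps between accessions.

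The 3 secondary wall subunits were detected in every library. CESA4 (AT5G44030, row AA32G00384) had 29.12, 27.55 and 33.33 CPM in CYP light and 31.34, 34.32 and 47.4 CPM in CYP dark. In TUR, CESA4 had 35.82, 37.27 and 34.44 CPM in light and 41.8, 41.56 and 31.16 CPM in darkness. By counts, only the light groups of the 2 accessions were separate, and no comparison was called. In the deposited RPKM, given below, CESA4 was separate between accessions in both conditions. The light response of CESA4 in CYP was -0.32 (95% interval -0.62 to -0.01, edgeR adjusted p = 0.12), and it was -0.13 without CYP dark replicate 3, which held the highest value. Between CYP and TUR its changes were -0.03 in darkness (-0.33 to 0.27) and -0.25 in light (-0.55 to 0.04).

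CESA7 (AT5G17420, row AA40G00374) had 7.08, 5.904 and 7.236 CPM in CYP light, 7.685, 6.816 and 5.621 CPM in CYP dark, 8.393, 8.974 and 8.308 CPM in TUR light, and 5.533, 6.691 and 6.433 CPM in TUR dark. The 3 TUR light libraries were above all other libraries. Its TUR light response was 0.46 (95% interval 0.13 to 0.79, SE 0.16, edgeR adjusted p = 0.0518). Over 21 alternatives the adjusted p ran from 0.0187 to 0.211, and 2 alternatives called it: limma after quantile normalization (adjusted p = 0.0187) and edgeR without CYP dark replicate 3 (adjusted p = 0.0368). In CYP the light response was -0.01 (-0.36 to 0.34), and the difference between accessions was -0.47 (95% interval -0.95 to 0.02, edgeR adjusted p = 0.395). Between CYP and TUR in light it was -0.34 (edgeR adjusted p = 0.0789), and limma on log2 RPKM gave the only call of 20 alternatives (adjusted p = 0.0407, within a range of 0.0407 to 0.284).

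CESA8 (AT4G18780, row AA57G00154) rested on few reads, 83 summed over CYP light, 85 over CYP dark, 117 over TUR light and 136 over TUR dark. It had 2.068, 2.482 and 2.046 CPM in CYP light, 3.094, 3.229 and 4.102 CPM in CYP dark, 2.623, 4.737 and 3.323 CPM in TUR light, and 3.381, 4.241 and 3.643 CPM in TUR dark. The CYP light libraries were the 3 lowest of the 12. CESA8 was lower in CYP than in TUR in light, at -0.65 (95% interval -1.18 to -0.13, SE 0.25, edgeR adjusted p = 0.0344). The call held in 13 of 20 alternatives, with adjusted p from 0.0159 to 0.191. It was lost without TUR light replicate 2 (log2 fold change -0.42, edgeR adjusted p = 0.191), without TUR light replicate 3 (-0.65, 0.0697), without CYP light replicate 1 (-0.59, 0.0988) and without CYP light replicate 3 (-0.58, 0.101). The CYP light response of CESA8 was -0.64 (95% interval -1.19 to -0.10, edgeR adjusted p = 0.0804), the TUR light response was -0.11 (-0.60 to 0.37), and the difference between them was -0.53 (-1.26 to 0.20, edgeR adjusted p = 0.549).

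Between CYP and TUR, the xylem marker sum was lower in every CYP library than in every TUR library, and its part in the secondary wall values was not tested. Within the list, XCP1, a protease of xylem vessels, averaged 1.69 ± 0.123 CPM in CYP light and 1.78 ± 0.442 CPM in CYP dark, against 7.85 ± 1.02 CPM in TUR light and 9.20 ± 0.486 CPM in TUR dark (SD, n = 3 each). The ratio of CESA4 to CESA7 reads was 4.11 to 4.67 in CYP light, 4.08 to 8.43 in CYP dark, 4.15 to 4.27 in TUR light and 4.84 to 7.56 in TUR dark. In TUR the light and dark ratios did not overlap, and in CYP they did.

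Of the seed coat subunits, CESA9 was unread and CESA2 nearly so. CESA9 (AT2G21770, row AA46G00095), which in Arabidopsis builds the secondary wall of seed coat epidermal cells, had 0 reads in all 12 libraries. A count of 0 allows up to 3 counts, which is 0.219 to 0.456 TMM-scaled CPM per library, counting error only. CESA2 (AT4G39350, row AA20G00013), a CESA6-type subunit also used in the Arabidopsis seed coat, had 4 reads over the 3 CYP light libraries, 3 over CYP dark, 4 over TUR light and 8 over TUR dark. Its highest library, TUR dark replicate 3, held 5 reads. A difference between groups was not detectable at this depth. The seed coat marker sum, most of it TTG2, was higher in light than in darkness in both accessions, and CESA9 was at 0 in both conditions.

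To compare levels between genes, counts were divided by the deposited gene length to give RPKM (CPM per kilobase of gene length). The sources used here do not say whether that length covers exons alone or the whole gene. In CYP light the mean RPKM was 80.2 ± 5.49 for CESA3, 36.5 ± 2.49 for COBRA, 35.6 ± 1.91 for CESA1, 7.30 ± 0.726 for CESA4, 5.89 ± 1.21 for CESA6, 1.43 ± 0.154 for CESA7 and 0.585 ± 0.0653 for CESA8 (SD, n = 3). In that order COBRA and CESA1 overlapped, and so did CESA4 and CESA6. In CYP dark the mean RPKM was 72.1 ± 9.84 for CESA3, 42.3 ± 6.94 for CESA1 and 39.6 ± 2.46 for COBRA, followed by CESA4 at 9.17 ± 2.08, CESA6 at 6.34 ± 0.881, CESA7 at 1.42 ± 0.219 and CESA8 at 0.925 ± 0.146. There only CESA1 and COBRA overlapped.

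In TUR light the mean RPKM was 67.9 ± 3.97 for COBRA, 65.3 ± 3.75 for CESA3 and 57.8 ± 3.05 for CESA1, then 10.1 ± 1.98 for CESA6, 8.72 ± 0.344 for CESA4, 1.81 ± 0.0767 for CESA7 and 0.948 ± 0.287 for CESA8. Neighbours overlapped for COBRA with CESA3 and for CESA6 with CESA4. In TUR dark the mean RPKM was 73.4 ± 4.15 for CESA3, 69.8 ± 2.67 for COBRA and 65.3 ± 7.80 for CESA1, which all overlapped, then 10.1 ± 0.792 for CESA6 and 9.28 ± 1.48 for CESA4, which overlapped, and 1.32 ± 0.129 for CESA7 and 1.00 ± 0.117 for CESA8, which did not. Among the 15671 tested rows, the mean RPKM of CESA3 stood at the 91.2 percentile in CYP light and the 89.6 percentile in TUR light. COBRA stood at the 81.6 percentile in CYP light and the 90 percentile in TUR light, and CESA8 at the 6.8 and 8 percentiles.

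Summed over the detected CESA genes, the primary wall subunits CESA1, CESA3 and CESA6 held 92.9 ± 0.205% of the RPKM in CYP light, 91.3 ± 0.330% in CYP dark, 92.1 ± 0.125% in TUR light and 92.8 ± 0.333% in TUR dark. The secondary wall subunits held the rest, 7.10 ± 0.207% in CYP light, 8.67 ± 0.337% in CYP dark, 7.94 ± 0.122% in TUR light and 7.21 ± 0.344% in TUR dark, with CESA2 below 0.03% in every library and CESA9 at 0. The primary wall share was higher in light than in darkness in all CYP libraries and lower in light in all TUR libraries. Of the same total, CESA1 held 27.2 ± 0.595% in CYP light and 31.9 ± 1.74% in CYP dark, against 40.0 ± 1.19% in TUR light and 40.7 ± 1.84% in TUR dark.

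These shares were different in the deposited RPKM of TUR. The RPKM columns of the authors' deposited table equal count over length and total in CYP but not in TUR. In TUR the authors' deposited table gave the secondary wall subunits 15.2 to 16.5% of the summed CESA RPKM in light and 14.6 to 15.4% in darkness. For COBRA the same deposited table listed 42.9 to 46.1 RPKM in TUR light, below its 59.5 to 65.9 RPKM for CESA1 and 65.3 to 68.1 RPKM for CESA3, so the place of COBRA in the TUR order turned on which values were used. The steps from CESA1 and CESA3 down to CESA6 and CESA4, and on to CESA7 and CESA8, were present in both. Accession gaps turned on the values used too, and deposited RPKM were not tested between accessions. The deposited CESA4 ran from 6.60 to 10.7 RPKM over CYP libraries and from 18.7 to 22.7 over TUR libraries. CESA6 ran from 4.44 to 7.22 in CYP and 14.4 to 19.7 in TUR. CESA7 ran from 1.10 to 1.59 and 3.08 to 4.95, and CESA8 from 0.534 to 1.01 and 1.99 to 2.915. The gap of COBRA was narrower than by counts.

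Rows with the most similar profiles over the 12 libraries were found for CESA1, CESA3 and COBRA among the tested rows with an Arabidopsis match. Similarity was the root-mean-square difference of log2 CPM after centring each row. Nearest to CESA1 were AA61G00248, a phenylalanyl-tRNA synthetase family gene (0.0727), AA33G00009, which encodes transportin 1 (0.0751), and AA61G00353, a SacI homology and WW domain gene (0.0851), where the median of these matched rows was 0.482 away. Nearest to CESA3 were AA87G00341, a winged-helix transcription factor family gene (0.0713), AA40G00477, a tetratricopeptide repeat gene (0.0865), and AA738G00001, a non-intrinsic ABC protein gene (0.0872), with the median row 0.339 away. Nearest to COBRA were AA78G00029, an AMP-dependent ligase family gene (0.0968), AA31G00514, a dolichol phosphate-mannose regulatory gene (0.0985), and AA8G00075, a gamma carbonic anhydrase gene (0.0992), with the median row 0.526 away. Among the members themselves the closest pairs were CESA1 with COBRA (0.208) and CESA6 with COBRA (0.210), and the farthest was CESA3 with COBRA (0.530). CESA3 was 0.430 from CESA1 and 0.236 from CESA4.

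Another list held genes for proteins that travel with or assist the synthase complex. Of its 16 tested rows, 2 were higher and 8 lower in CYP light than in CYP dark, where 25% of all tested rows were called. In TUR, 2 were higher and 2 lower in light than in darkness, where 18.4% of all tested rows were called. Without CYP dark replicate 3 the counts were 3 higher and 6 lower in CYP and 2 higher and 5 lower in TUR. The CYP calls of CSI1 AA30G00368 (log2 fold change -0.52, edgeR adjusted p = 0.0206) and CC1 AA1638G00001 (-0.53, 0.0157) were lost without that library, at -0.37 and -0.30 (edgeR adjusted p = 0.0787 for each). The TUR change of CC1 AA1638G00001 was -0.42 (edgeR adjusted p = 0.0707), and it was called without that library (edgeR adjusted p = 0.00794). The median change of the list was -0.28 in CYP and -0.22 in TUR. THE1 (AA11G00022), a receptor kinase that senses the state of the wall when cellulose is short, had 9.626, 11.12 and 10.45 CPM in CYP light, 19.06, 22.12 and 22.64 CPM in CYP dark, 28.1, 34.4 and 28.02 CPM in TUR light, and 35.04, 30.44 and 31.7 CPM in TUR dark. The CYP light libraries were the lowest, the CYP dark libraries next, and the TUR groups overlapped.

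THE1 fell in light in CYP by 1.03 on the log2 scale (SE 0.13, edgeR adjusted p = 8.44e-06), the TUR change was -0.11, and the difference between these responses was -0.91 (SE 0.17, edgeR adjusted p = 0.00594). Of 51 tested rows in 6 lists of cellulose and wall genes, only THE1 had a called difference between accessions in its light response. Over all tested rows, 2.24% were called for that difference. Without CYP dark replicate 3 a second list row, CSI1 AA46G00115, was called (0.61, edgeR adjusted p = 0.0483). CSI3 (AA31G00234), a relative of the protein CSI1 that links synthase complexes to microtubules, had 59.83, 52.2 and 59.79 CPM in CYP light and 29.64, 38.74 and 41.17 CPM in CYP dark. In TUR it had 80.78, 105.8 and 70.32 CPM in light and 40.8, 39.02 and 29.68 CPM in darkness. CSI3 rose in light in CYP by 0.66 (SE 0.15, edgeR adjusted p = 0.00413) and in TUR by 1.22 (SE 0.15, edgeR adjusted p = 1.28e-05), and light and dark libraries did not overlap in either accession.

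CTL1 (AA7G00150), a chitinase-like protein needed for cellulose assembly in Arabidopsis, had 118.7, 150.3 and 133 CPM in CYP light, 171, 169.3 and 167.9 CPM in CYP dark, 150.4, 132.9 and 144.9 CPM in TUR light, and 208.8, 207.4 and 198.2 CPM in TUR dark. All light libraries were below all dark libraries of the same accession. CTL1 fell in light by 0.52 in TUR (SE 0.09, edgeR adjusted p = 0.000714) and by 0.34 in CYP (SE 0.09, edgeR adjusted p = 0.0133), where leaving out CYP light replicate 1 or 3 ended the call. The endoglucanase gene KOR1 had 2 rows. KOR1 AA39G00817 fell in CYP light by 1.06 (SE 0.23, edgeR adjusted p = 0.00204). Its TUR change was -0.77 (edgeR adjusted p = 0.0602), and it was called without CYP dark replicate 3 (edgeR adjusted p = 0.0176). KOR1 AA170G00002 fell by 0.49 in CYP and by 0.32 in TUR, where the edgeR adjusted p was 0.0456. There 9 of 21 alternatives did not call it, among them those without TUR light replicate 1, 2 or 3 or without TUR dark replicate 1 or 2. KOB1, needed for cellulose synthesis in elongating cells of Arabidopsis, fell in CYP light by 0.54 (SE 0.12, edgeR adjusted p = 0.00215). STL1, a Golgi protein acting in complex assembly, was higher in light in both accessions by 0.29 in CYP and 0.28 in TUR, and the TUR call was lost in 18 of 21 alternatives, with edgeR adjusted p = 0.0455 and an adjusted p of 0.0552 to 0.356 in those alternatives. The CYP call (edgeR adjusted p = 0.0332) was lost without CYP light replicate 1 or 2 or CYP dark replicate 1 or 2. Of the endosperm and epidermis markers, NCED6 and PDF1 were lower in light in both accessions and ATML1 was not called in either, and their part in the partner values was not tested.

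**Figure D4:**
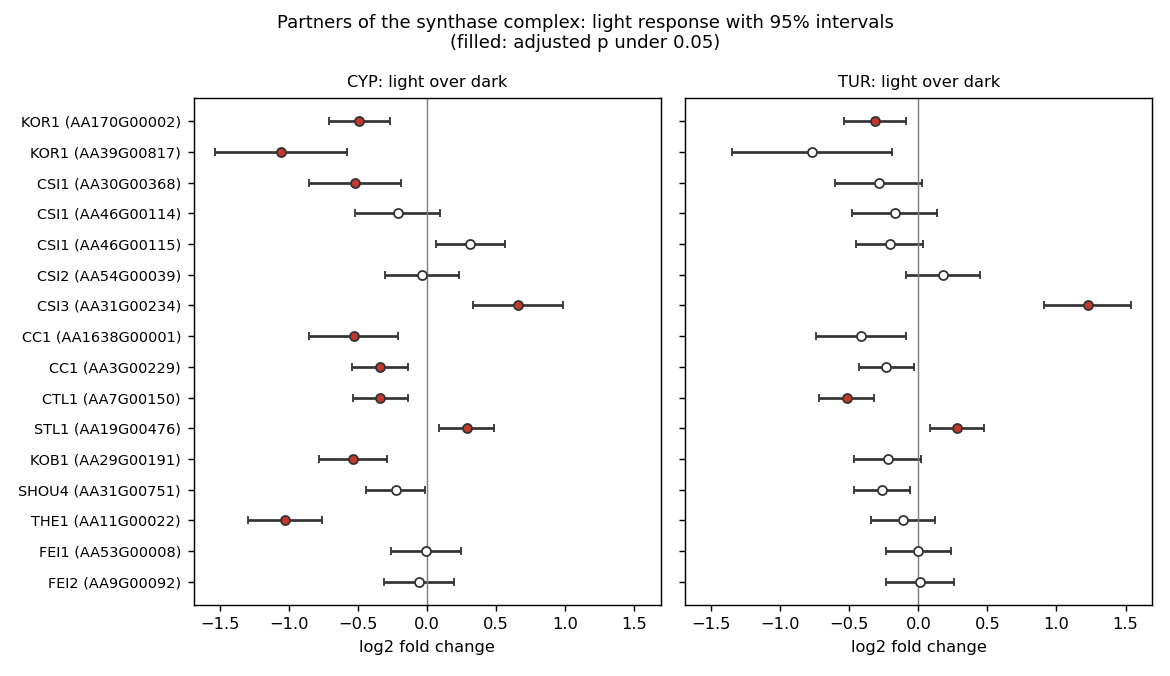
Log2 fold changes of light over dark (horizontal axis) for the 16 tested rows of the list of complex partners, in CYP (left) and TUR (right), with 95% intervals as bars and filled points where edgeR's adjusted p was under 0.05. CSI3 and STL1 are filled on the positive side in both panels, 8 rows are filled on the negative side in CYP and 2 in TUR, and THE1 is at -1.03 in CYP and -0.11 in TUR.

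Between the accessions, 4 rows of the partner list were higher and 5 lower in CYP than in TUR in darkness, and 2 were higher and 5 lower in light. Over all tested rows, 44.5% were called in darkness and 52.7% in light. Without CYP dark replicate 3, 3 partner rows were higher and 6 lower in each condition. KOR1 AA39G00817 was higher in CYP in darkness by 1.39 (SE 0.24, edgeR adjusted p = 0.000101) and in light by 1.11 (SE 0.27, edgeR adjusted p = 0.00198), where it averaged 5.10 ± 0.928 CPM in CYP and 2.39 ± 0.506 CPM in TUR. The far more abundant row, KOR1 AA170G00002, averaged 282.9 ± 16.1 CPM in CYP light and 260.2 ± 8.56 CPM in TUR light. Its change was 0.12 in light (edgeR adjusted p = 0.354) and 0.29 in darkness (edgeR adjusted p = 0.0309). That dark call was lost in 7 of 20 alternatives, among them without CYP dark replicate 3. THE1 was lower in CYP in darkness at -0.61 and in light at -1.53 on the log2 scale (edgeR adjusted p = 0.00033 and 8e-09). CSI1 AA30G00368 was lower in CYP at -0.50 in darkness and -0.73 in light (edgeR adjusted p = 0.0138 and 0.000646), and the dark call was lost without TUR dark replicate 2 or CYP dark replicate 1. CC1 AA1638G00001, a microtubule-binding companion of the complex, was higher in CYP in darkness by 0.60 (edgeR adjusted p = 0.00395). CSI3 was lower in CYP than in TUR in light at -0.57 (edgeR adjusted p = 0.00306). CSI1 had 3 rows and CC1 had 3, and reads shared between such copies could not be told apart.

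Of 6 tested genes of the COBRA-like family other than COBRA, 1 was called with light, in both accessions, where 25% of all tested rows were called in CYP and 18.4% in TUR. COBL7 (AA18G00179) averaged 13.1 ± 0.995 CPM in CYP light and 28.6 ± 6.89 CPM in CYP dark, and 25.6 ± 1.53 CPM in TUR light and 42.3 ± 5.82 CPM in TUR dark (SD, n = 3 each). It fell in light by 1.11 in CYP (SE 0.15, edgeR adjusted p = 2.59e-05) and by 0.73 in TUR (SE 0.14, edgeR adjusted p = 0.0011), and it was lower in CYP than in TUR in darkness (-0.58) and in light (-0.96). The part of the endosperm and epidermis markers in the values of COBL7 was not tested. In darkness, where 44.5% of all tested rows were called, COBL8 was also lower in CYP, at -1.63 (SE 0.35, edgeR adjusted p = 0.000934), and COBL11 was higher, at 1.09 (SE 0.26, edgeR adjusted p = 0.00258). COBL8 was lower in CYP in light at -0.89 (edgeR adjusted p = 0.0208), which was lost without TUR light replicate 2 or 3 or CYP light replicate 1. It had 39 reads over CYP light and 18 over CYP dark. Fewer than 3 CYP libraries reached 1 CPM, so COBL8 entered the test only through TUR, where it was higher.

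Among 9 tested genes that supply UDP-glucose, the substrate of cellulose synthase, 1 was higher and 2 were lower in CYP light than in CYP dark, and 1 was higher in TUR light than in TUR dark. Over all tested rows, 25% were called in CYP and 18.4% in TUR. Without CYP dark replicate 3, 2 supply genes were higher and 2 lower in CYP light, and 2 were higher and 0 lower in TUR light. Sucrose synthase SUS3 averaged 304.4 ± 16.5 CPM in CYP light and 209.6 ± 21.3 CPM in CYP dark, and rose by 0.54 (SE 0.10, edgeR adjusted p = 0.000356). Its TUR change was 0.27 (edgeR adjusted p = 0.0566), and it was called without CYP dark replicate 3 (edgeR adjusted p = 0.0179). SUS1 averaged 5.76 ± 1.27 CPM in TUR light and 2.41 ± 0.284 CPM in TUR dark, and rose by 1.28 (SE 0.23, edgeR adjusted p = 0.000746). The invertase CINV1 fell in CYP light by 0.58 (SE 0.12, edgeR adjusted p = 0.00154). CINV2 fell there by 0.53 (SE 0.17, edgeR adjusted p = 0.0249), which was lost without any 1 of CYP light replicates 1 and 2 and CYP dark replicates 1 and 2.

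Between accessions, 2 supply genes were higher and 4 lower in CYP than in TUR in each condition, beside the 44.5% of all tested rows called in darkness and the 52.7% called in light. The higher genes were SUS3 and SUS1 in darkness and SUS3 and UGP2 AA40G00378 in light. UGP2 AA10G00274, a UDP-glucose pyrophosphorylase gene, averaged 2.63 ± 0.701 CPM in CYP light and 2.86 ± 2.01 CPM in CYP dark, against 61.8 ± 2.61 CPM in TUR light and 59.8 ± 1.58 CPM in TUR dark. Its log2 fold change was -4.50 in darkness and -4.55 in light (edgeR adjusted p = 2.22e-11 and 6.05e-12). The second UGP2 row, AA40G00378, averaged 201.2 ± 5.12 CPM in CYP light and 191.5 ± 21.1 CPM in CYP dark, against 151.9 ± 8.40 CPM in TUR light and 162.2 ± 12.5 CPM in TUR dark. This row was singled out after its values were seen. How alike the UGP2 rows are in sequence was not examined. SUS5, SUS4 and CINV2 were also lower in CYP, at -3.24, -2.05 and -1.23 in darkness and -2.62, -1.44 and -1.50 in light, and SUS3 was higher by 0.81 and 1.07. SUS5 had 7 reads over CYP light and 6 over CYP dark. It reached 1 CPM in TUR libraries alone, so it entered the test only through the accession where it was higher.

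Cellulose synthase-like genes were lower in light where they were called. Of 7 tested rows, 3 were lower in CYP light than in CYP dark, 3 were lower in TUR light than in TUR dark, and 0 were higher in either (edgeR; DESeq2 also called 3 in each). Over all tested rows, 14.3% were lower in CYP light and 9.22% in TUR light. CSLA2, a mannan synthase, averaged 42.3 ± 5.65 CPM in CYP light and 86.8 ± 7.23 CPM in CYP dark, and 44.1 ± 4.59 CPM in TUR light and 71.6 ± 3.27 CPM in TUR dark. It fell by 1.03 in CYP (SE 0.11, edgeR adjusted p = 1.21e-06) and by 0.71 in TUR (SE 0.11, edgeR adjusted p = 0.000145), and the part of the endosperm and epidermis markers in this was not tested. CSLA9, also a mannan synthase, fell by 1.03 in CYP (edgeR adjusted p = 0.00118) and by 0.53 in TUR (edgeR adjusted p = 0.0275), where the call was lost without TUR light replicate 3 or TUR dark replicate 2. CSLA7 fell in TUR by 1.32, and CSLD3 AA10G00310 fell in CYP by 0.51. Between CYP and TUR, 1 row was higher and 5 were lower in darkness and 0 were higher and 6 lower in light, beside 44.5% and 52.7% of all tested rows called. In darkness and in light, CSLD5 was at -2.21 and -2.29, CSLA7 at -1.58 and -1.24, CSLA9 at -1.31 and -1.82, and the xyloglucan backbone gene CSLC4 at -0.82 and -1.11. CSLD5 had 6 reads over CYP light and 6 over CYP dark, and CSLA7 had 22 and 29. CSLD5 reached 1 CPM in TUR libraries alone, so it entered the test only through the accession where it was higher. CSLA7 reached 1 CPM in fewer than 3 CYP libraries, so it too was tested only through TUR, where it was higher. The light call of CSLA7 was lost in 3 of 20 alternatives, without TUR light replicate 1 and under 2 limma settings, with adjusted p from 0.0552 to 0.121. Both calls of CSLD5 were lost in 1 of 17, limma on log2(RPKM + 5) (adjusted p = 0.145 in darkness and 0.244 in light). CSLA2 was the row higher in darkness (0.28, edgeR adjusted p = 0.0424), and its call was lost in 14 of 20 alternatives, among them without CYP dark replicate 3.

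The secondary wall list held regulators, xylan and lignin genes and xylem proteases. Of its 17 rows, 7 were tested and 5 had 0 reads in all libraries, namely the master regulator SND1, both rows of the regulator NST1, the xylan gene IRX9 and 1 XCP2 row. Light called 0 of 7 in CYP and 0 of 7 in TUR by edgeR, with 0 and 1 under 0.05 before adjustment and 0 by DESeq2 in each. Over all tested rows, light called 25% in CYP and 18.4% in TUR. Between CYP and TUR, 2 were lower in darkness and 3 in light, and 0 were higher, where 22.1% and 27.8% of all tested rows were lower. XCP1 was lower in CYP at -2.35 in darkness and -2.20 in light (edgeR adjusted p = 6.81e-08 and 5.28e-08), and FRA8, which acts in xylan synthesis, at -1.68 and -2.14. FRA8 had 15 reads over CYP light and 10 over CYP dark. It reached 1 CPM in TUR libraries alone, so it entered the test only through the accession where it was higher. IRX8, also of xylan synthesis, was lower in light at -0.83 (edgeR adjusted p = 0.0466), and 12 of 20 alternatives did not call it, among them leaving out any TUR library.

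Of 6 tested seed coat mucilage genes, 3 were lower in CYP light than in CYP dark, 1 was lower in TUR light than in TUR dark, and none was higher in either by edgeR. Over all tested rows, 14.3% were lower in CYP light and 9.22% in TUR light. Without CYP dark replicate 3, 2 mucilage genes were lower in each accession. MUCI10, which decorates mucilage galactomannan in Arabidopsis, averaged 23.3 ± 3.44 CPM in CYP light and 33.8 ± 3.01 CPM in CYP dark, and 8.55 ± 1.55 CPM in TUR light and 13.0 ± 1.04 CPM in TUR dark. It fell in light by 0.53 in CYP (edgeR adjusted p = 0.00562) and by 0.58 in TUR (edgeR adjusted p = 0.0117), and was higher in CYP than in TUR by 1.37 in darkness and 1.42 in light. MUM4, which makes rhamnose for mucilage, fell in CYP light by 0.94 (SE 0.18, edgeR adjusted p = 0.000628) and was lower in CYP than in TUR at -0.52 in darkness and -1.17 in light; the dark call was lost without TUR dark replicate 3. SOS5, linked in Arabidopsis to cellulose in mucilage, fell in CYP light by 0.55 (edgeR adjusted p = 0.0118), and without CYP dark replicate 3 the change was -0.33 (edgeR adjusted p = 0.0569), which is not a call. In TUR its light change was -0.37 (edgeR adjusted p = 0.0898), and it was called without that library (edgeR adjusted p = 0.0138). Between accessions, 2 mucilage genes were higher and 1 lower in CYP than in TUR in darkness, and 2 higher and 2 lower in light. Over all tested rows, 44.5% were called in darkness and 52.7% in light. FLY1 was higher in CYP by 0.38 in darkness and in light (edgeR adjusted p = 0.00123 and 0.000755). SOS5 was lower in CYP in light at -0.41 (edgeR adjusted p = 0.0298), a call lost in 5 of 20 alternatives. The seed coat marker sum, most of it TTG2, moved up with light in both accessions, and its part in the mucilage gene values was not tested.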

How the data were processed

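Per the labels' protocols, poly(A) RNA of seeds was made into libraries with a Lexogen SENSE kit; the submitters' processing notes name Bowtie2 2.2.3 and HTSeq 0.6.1 with no role given. Per the file headers, the deposited table gives raw counts and RPKM per gene model and library. The authors' deposited RPKM equals count over length and column total for 101971 of 101971 CYP values (within 0.01%) and 1 of 104732 TUR values, so counts were used. The genome release and the use of strand in counting are not given in the labels or file headers.

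Counts were scaled by TMM and tested with edgeR 4.0.16 (R 4.3.3): 4 group means over 12 libraries, quasi-likelihood test, Benjamini-Hochberg adjustment over 15671 rows, called at adjusted p under 0.05. CPM are TMM-scaled; RPKM were computed from TMM-scaled counts and deposited lengths. Test scripts were tested on simulated data. DESeq2 1.42.0, limma 3.58.1 (log2 of value + 1 or + 5), other scaling, no filter, separate fits, the replicate block and leaving out each library were alternatives. Limma on deposited RPKM, within each accession only, and on quantile-normalized CPM were added after seeing the data.

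Members and lists were chosen with earlier results of these data known. Named were all members, up to 4 called rows per list and comparison with the largest change, and the 3 nearest rows. Values beyond this were chosen after they were seen. They are CTL1, STL1 and KOR1 AA170G00002 in CYP light, and KOR1 AA39G00817, CC1, SUS3 and SOS5 in TUR light. Between accessions they are KOR1 AA170G00002, SUS3, CSLA2 and the deposited RPKM of members. The second UGP2 row, CSI1 AA46G00115 and single marker genes are others. Replicate numbers did not pair libraries (correlations of deviations -0.353 to 0.182).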

Additional observations from a re-analysis of the deposited data

Results flagged for a closer look

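The light response of THE1 differed between the accessions by the test of the difference itself. The log2 fold change of light over dark was -1.03 in CYP and -0.11 in TUR, a difference of -0.91 (SE 0.17, edgeR adjusted p = 0.00594). THE1 averaged 10.4 ± 0.750 CPM in CYP light and 21.3 ± 1.93 CPM in CYP dark, and 30.2 ± 3.66 CPM in TUR light and 32.4 ± 2.38 CPM in TUR dark (SD, n = 3 each). All 19 alternatives that give this difference called it. No cellulose synthase and not COBRA was called in that comparison, where 2.24% of all tested rows were called.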

How the results depend on the processing

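Over 35 fold changes of members and all alternatives, 694 values kept their direction, where called, and their side of the threshold, 4 crossed to a call, 9 lost one and 0 called values reversed. Limma after quantile normalization called 1 member in TUR light (CESA7) against 0 in the main test, and limma on deposited RPKM called 1493 rows in TUR light (2882 in the main test) and 13 cellulose and wall list genes in CYP light (20 in the main test). The causes were not tested.

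Leaving out 1 library at a time gave 0 to 1 members called in TUR light, 0 to 1 in CYP light, 0 for the difference, 3 between accessions in darkness and 3 to 5 in light; without CYP light replicate 3 it was 3, and both single calls came without CYP dark replicate 3. Without that library a second list gene, CSI1 AA46G00115, was called for the difference (0.61, edgeR adjusted p = 0.0483, against 0.52 and 0.126). The list genes called ranged over 7 to 15, 15 to 21, 1 to 2, 23 to 30 and 23 to 30 in the same order, and all rows over 1875 to 3764, 2915 to 4071, 163 to 452, 5894 to 6940 and 7326 to 9008.

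With the replicate number as a block, 0, 0, 0, 3 and 5 members and 2673, 3719, 270, 6764 and 8101 rows were called in that order, and no member call changed. The samples did not pair by number: 2, 3, 0 and 2 of 6 samples correlated best with their own number in the 2 light and 2 accession comparisons. CESA2, CESA8 and CESA9 rest on few or 0 reads, and the limit given for a count of 0 covers counting error only.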
